A study of Homo sapiens with 6 samples.

Results

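The comparison described here sets neural crest cells on day 5 of induction (NC, 2 libraries) against pre-neural crest cells on day 3 (preNC, 2 libraries). Both were derived from WA01 (H1), an established line of human embryonic stem cells with a wildtype genotype. Its members are the genes of the day 3 and day 5 rows of the deposited table with an FPKM of 1 or more on day 3 or on day 5. FPKM is the number of sequenced fragments per length of transcript and depth of library. Of 23284 genes, 13871 were members, and 13734 of these had been tested by the authors. The other 137 were without a test, because 99 were marked as not tested, 37 as low in data and 1 as failed. Just inside the minimum lay LOC641746 (1.00078 on day 3, 0.557 on day 5) and MIA (0 and 1.00079), and just outside it PIK3IP1 (0.672 and 0.99988) and PGBD4 (0.746 and 0.999724).

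Cells of both groups were, per the labels' protocols, cultured on Matrigel in a serum-free medium with 3 µM CHIR99021, which blocks the kinase GSK3 and so activates WNT/beta-catenin signalling. The ROCK inhibitor Y-27632 was present at 10 µM on the first days only, and cells were plated at 20000 per cm2. The medium contained 2% B27 and 0.5% bovine serum albumin, and the labels list no added BMP or FGF. The same protocol text stands at every library, also at the undifferentiated cells of day 0, and the libraries were made from poly-A RNA. The labels do not say whether the libraries of a group came from separate cultures, and the table holds 1 value per gene and group, so the spread between libraries is not known here. Their depth is unknown too.

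The neural crest arises at the border between neural plate and surface ectoderm, at the dorsal edge of the closing neural tube. In the embryo WNT, BMP and FGF signals place this border. Border factors such as PAX3, PAX7, MSX1 and ZIC1 then act upstream of crest specifiers such as FOXD3, SOX9, TFAP2B and SOX10. Crest cells leave the epithelium by an epithelial to mesenchymal transition, in which they exchange cadherins and remodel their matrix, and later form sensory and autonomic neurons, glia, pigment cells and facial mesenchyme.

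A gene counted as called where its q was below 0.05 in the authors' deposited table, and the verbs rose and fell are used of called genes only. Of the tested members, 803 rose between day 3 and day 5, which is 5.85% of them, and 929 fell, which is 6.76%. Counts of gene lists below are to be read beside these shares. The median change of all members was -0.05 on the scale of log2(FPKM + 1), with day 3 subtracted from day 5. Most calls were of moderate size, since 931 of 1732 called genes changed by less than 1 on that scale. Changes of at least 2 were called for 76 higher and 78 lower genes, and changes of at least 3 for 25 and 24. Among genes whose higher FPKM lay between 1 and 2, 18% were called, against 8.86% of those at 100 and over. In what follows 2 values joined by "from" and "to" are the FPKM on day 3 and on day 5. Log2 ratios are of the plain FPKM values, and ± gives the standard error that follows from the statistic of the authors' deposited table.

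**Figure D1:**
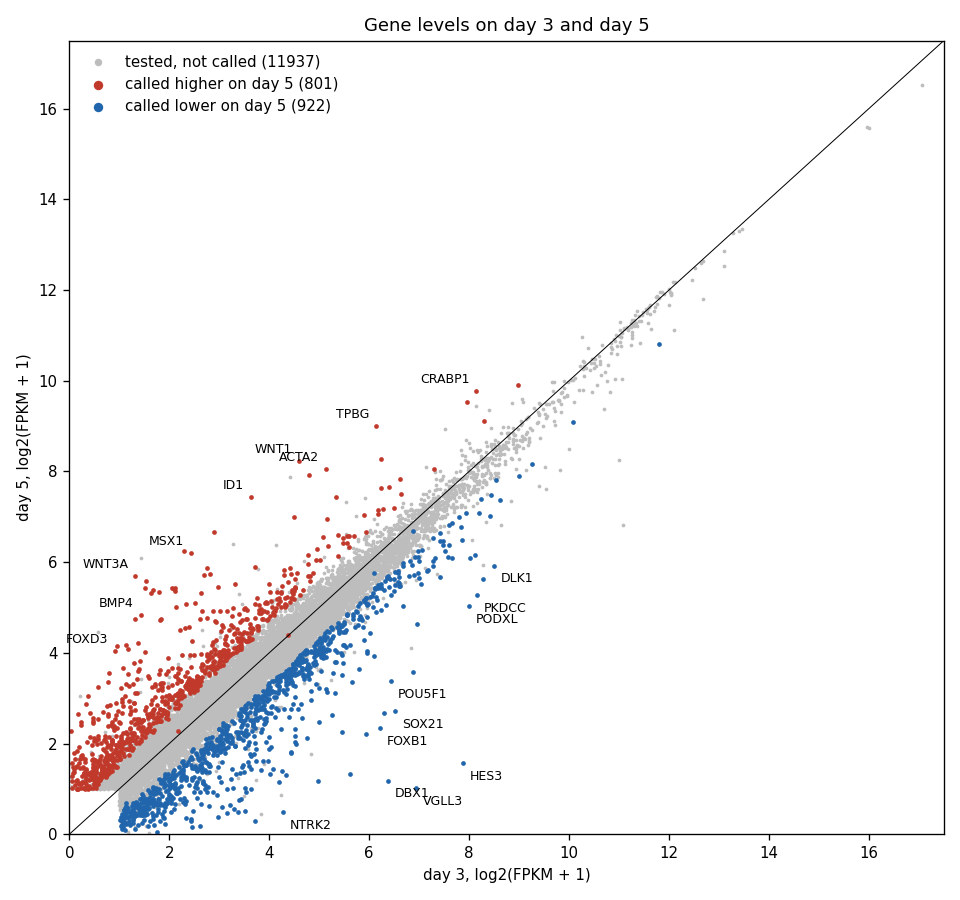
Level of each tested member on day 3 (x axis) and day 5 (y axis), both as log2(FPKM + 1), with 1 point per gene and the diagonal marking equal levels. The 13660 genes above 0 in both groups are drawn, with called genes in colour, and WNT3A, MSX1 and ID1 lie far above the diagonal and HES3, VGLL3 and DBX1 far below it.

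Secreted signals and regulators of the dorsal neural tube were among the largest rises. WNT3A rose from 1.50 to 50.6 (log2 5.08 ± 0.41) and the homeobox gene LMX1A from 1.91 to 46.8 (log2 4.61 ± 0.48). Further down the same ranking stood genes of other kinds. LYPD1, a modulator of nicotinic receptors, rose from 3.17 to 42.2, and CPE, carboxypeptidase E of the secretory pathway, from 26.7 to 242. TPBG, a membrane glycoprotein that dampens WNT signalling, rose from 69.7 to 510.0 (log2 2.87 ± 0.44). The chemokine CCL2 rose from 5.73 to 57.6, the inducible nitric oxide synthase NOS2 from 1.20 to 17.1 and SPHK1, which makes sphingosine 1-phosphate, from 1.24 to 16.05. COLEC12, a scavenger receptor, rose from 5.48 to 51.4, LMO3, a LIM-only cofactor, from 1.58 to 17.6, SULF1, which trims heparan sulfate, from 4.06 to 33.02, and MMRN1, a multimerin, from 0.940 to 16.7.

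The largest falls held progenitor regulators, genes of pluripotent cells and several enzymes. HES3, a repressor of transcription found in neural progenitors, fell from 235 to 1.95 (log2 -6.91 ± 0.32). DBX1, a homeobox gene of the intermediate neural tube, fell from 81.9 to 1.26 (log2 -6.02 ± 0.39). The forkhead gene FOXB1, whose role in the timing of crest differentiation the series addresses, stood at 3.77 on day 0 and fell from 73.6 to 4.08 (log2 -4.17 ± 0.29) between day 3 and day 5. PODXL, a sialomucin of the apical surface and of pluripotent cells, fell from 256 to 31.5 (log2 -3.02 ± 0.48), and PKDCC, a secreted kinase, from 284 to 37.8. The peroxisomal oxidase PIPOX fell from 47.9 to 1.51, the acyl-CoA synthetase ACSL1 from 10.5 to 0.428 and the adaptor GRB14 from 43.1 to 3.75. NPTX1, a neuronal pentraxin, fell from 9.43 to 0.398, SEZ6 from 15.2 to 1.51 and CBLN1, a synaptic organizer, from 10.6 to 0.917. The germ cell gene DAZL fell from 9.52 to 0.697, VRTN, vertnin, from 31.04 to 4.55, and LECT1, chondromodulin, from 26.02 to 3.39. In plain FPKM the largest drops of called genes other than small RNAs were those of TMSB4X, an actin-binding peptide (3551 to 1791), the chaperone HSPA8 (1082 to 544) and APOE (613 to 285), and the largest gains those of CRABP1, a retinoic acid-binding protein (281 to 877), and TAGLN (248 to 737).

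Some genes passed from below 1 to at least 5, or the reverse. Of 19 called genes that did so upwards, 2 were small nucleolar RNA genes. Among the other 17 were PAX7 (from 0.715 to 9.31) and FOXD3 (from 0.876 to 15.4), which had stood at 17.9 on day 0. Also at or above 5 on day 5 were DOCK8, a guanine nucleotide exchange factor (from 0.294 to 7.33), and SAMD5 (from 0.262 to 6.32). So were the neuropeptide GRP, gastrin-releasing peptide (from 0.335 to 5.39), and the retinaldehyde dehydrogenase ALDH1A1 (from 0.134 to 5.25). The guidance ligand SLIT2 rose from 0.676 to 6.05. Downwards the count was 27, with 7 small nucleolar RNA genes. The other 20 held the BDNF receptor NTRK2 (from 18.5 to 0.404) and the GDNF receptor RET (from 8.79 to 0.469). They also held PRDM14, a repressor of transcription found in pluripotent and germ cells (from 12.2 to 0.221). Also among them were the histamine receptor HRH3 (from 7.29 to 0.510) and the Hedgehog target GLI1 (from 5.23 to 0.587).

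The labels were set beside marker lists. Of 20 neural crest markers 17 were members, and 11 of these rose (10 under the normal p, a p recomputed from the deposited test statistic with a normal distribution and adjusted over all tested rows), with a median change of 1.80. None fell in the authors' deposited table (2 at an unadjusted p under 0.05, 0 under the normal p). TFAP2B rose from 0.182 to 4.57, ETS1, a factor of cranial crest, from 1.11 to 6.14 and SNAI2, a repressor of transcription that drives the epithelial to mesenchymal transition, from 4.18 to 8.24 (log2 0.98 ± 0.49, for which the authors' deposited table gives q 0.0489). The crest markers SOX10, SOX8, SOX5, LMO4, B3GAT1 and NGFR were not called, SOX10 standing at 3.87 and 6.33 and NGFR at 18.5 and 11.7. TWIST1 was below 1 on both days (0.241 and 0.474). Of the 18 markers of pluripotent cells 12 were members and 10 fell, the DNA methyltransferase DNMT3B from 102 to 31.99, TERT from 5.41 to 1.20 and ZFP42 from 42.4 to 14.99. On day 5 SOX2 was still at 129, DNMT3B at 31.99 and POU5F1 at 9.40. Values of POU5F1 are uncertain, since it shares sequence with its pseudogene copies.

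Markers of mesoderm, endoderm, endothelium and blood, trophoblast and surface ectoderm were mostly below 1, while those of neurons were mostly members. Mesoderm had 2 members of 14 genes, TBX6 (1.70 and 1.11) and TCF15 (2.1 and 1.03), and endoderm 1 of 12, CXCR4, which crest cells also express. By Cuffdiff neither list had a call (1 mesoderm and 0 endoderm genes at an unadjusted p under 0.05, 0 under the normal p). The endothelial list had 4 members of 12 genes, of which VWF fell from 2.11 to 0.697, and the angiopoietin receptor TEK stood at 21.5 and 15.3 without a call. The list of surface ectoderm and placode had 6 members of 17. GATA3 rose from 0.108 to 1.84, GATA2 from 0.227 to 1.55 and SIX4 from 2.90 to 5.32, and EYA2 fell from 2.74 to 1.22, a list with 2 higher and 0 lower under the normal p. Of 4 trophoblast and amnion members 2 rose and 1 fell (1 and 1 under the normal p), GATA3 being shared by both lists. For the keratins KRT8 and KRT18 the estimate failed, and their listed 0 says nothing. Of 15 neuron markers 12 were members, of which 6 fell (4 under the normal p) and 1 rose. The other 5 members were not called, among them MAP2 (54.7 and 57.8) and INA (17.7 and 12.2). The tubulin TUBB3 fell from 292 to 136, the neurofilaments NEFM from 9.86 to 4.18 and NEFL from 4.50 to 2.14 and the splicing factor RBFOX3 from 4.04 to 1.39, whereas the growth cone protein GAP43 rose from 29.5 to 65.5. In such bulk samples fewer cells of a type and less RNA per cell cannot be told apart.

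Forebrain genes went both ways, 4 higher and 2 lower of 8. The eye field factors SIX6 and SIX3 rose from 0.114 to 2.56 and from 0.731 to 3.44 and OTX1 from 17.8 to 39.04, while HESX1 fell from 8.45 to 1.34 and FEZF1 from 7.88 to 1.004. RAX, LHX2 and EMX1 were below 1 on both days.

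BMPs are secreted ligands that bind receptor kinases, which phosphorylate SMAD1, SMAD5 and SMAD9. These enter the nucleus with SMAD4 and raise targets such as the ID genes, while secreted antagonists trap the ligands. Of 12 ligand genes 7 were members, and the other 5 were below 1 on both days. Of the members 5 rose, that is 71.4% against 5.85% of all tested genes, and their median change was 1.90. BMP7 rose from 7.11 to 29.3 (log2 2.04 ± 0.37), the roof plate ligand GDF7 from 0.168 to 4.32 (log2 4.68 ± 0.45) and GDF6 from 0.314 to 1.55. GDF7 and GDF6 are members through their day 5 values alone, so they could only add to the rises. BMP5 (6.57 and 7.63) and GDF11 (6.64 and 10.8) were not called. On day 5 the highest ligand levels were those of BMP2 (41.4), BMP7 (29.3) and BMP4 (27.5), an order that was not tested.

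Receptor and SMAD genes were called less often than the ligands. Of 11 such genes 1 rose (9.09%) and 2 fell (18.2%), against 5.85% and 6.76% of all tested genes. The type I receptor BMPR1A stood at 21.6 and 23.3, SMAD1 at 12.5 and 11.9 and SMAD5 at 21.00 and 21.5, all without a call, as was the activin receptor ACVR2A at 6.99 and 2.03. The exception upwards was SMAD9, from 0.384 to 4.90 (log2 3.67 ± 0.60). The co-receptors RGMA and RGMB fell from 123 to 24.02 (log2 -2.36 ± 0.33) and from 63.6 to 20.7 (log2 -1.62 ± 0.41). Of 9 secreted antagonists 3 rose, GREM1 from 2.51 to 25.4 (log2 3.34 ± 0.49), NOG from 1.47 to 25.7 and BMPER from 0.395 to 1.74. FST, which mainly traps activins, fell from 183 to 75.04 (log2 -1.29 ± 0.38), and CHRD (3.79 and 3.19) and TWSG1 (18.9 and 23.5) were not called.

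Among 14 target genes 9 rose, 64.3% of the list, also 9 under the normal p. No target fell in the authors' deposited table (0 at an unadjusted p under 0.05, 0 under the normal p). The ID genes, which encode inhibitors of bHLH factors, were not alike. ID1 rose from 11.3 to 174 (log2 3.93 ± 0.37) and ID4 from 2.56 to 25.9 (log2 3.34 ± 0.46). ID3 was at 159.5 and 255 (q 0.0593, the authors' deposited table), and ID2 at 231 and 186, neither called. The pseudoreceptor BAMBI rose from 1.33 to 4.07, the bHLH genes HEY1 and ATOH8 from 0.716 to 4.19 and from 0.486 to 1.84, and the inhibitory SMAD6 stood at 6.70 and 6.67. In undifferentiated cells on day 0 ID1 stood at 119, ID4 at 6.45 and BAMBI at 12.2, so for these the day 3 value is the lowest of the course. Genes outside the BMP lists were lowest on day 3 too, such as ETS1 (7.27 on day 0), CTGF (66.3) and S100A11 (203).

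**Figure D2:**
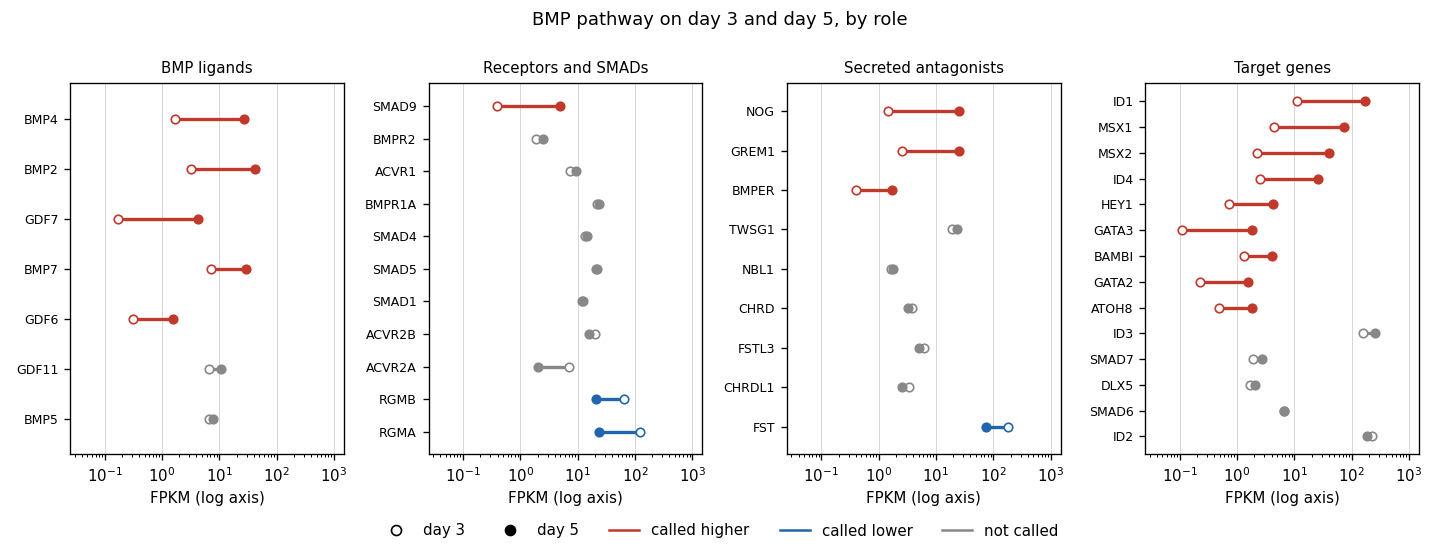
FPKM on day 3 (open circles) and day 5 (filled circles) of the BMP pathway members, on a log axis, with 1 panel per role and 1 row per gene, each circle a value over 2 libraries combined. Ligands and targets stretch to the right (BMP4 from 1.69 to 27.5), and 8 of the 11 receptor and SMAD genes were not called.

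WNT ligands bind Frizzled receptors together with LRP5 or LRP6, and R-spondins acting through LGR receptors keep Frizzleds on the surface. SFRP proteins and FRZB trap the ligands, and DKK1 blocks the LRP co-receptors. All 16 receptor genes listed were members, and 6 fell (6 under the normal p), 37.5% against 6.76% of all tested genes. FZD7, the most abundant of them, fell from 171 to 49.8 (log2 -1.78 ± 0.37), FZD5 from 9.72 to 1.54 (log2 -2.66 ± 0.47), FZD8 from 13.9 to 4.84, FZD2 from 56.7 to 25.6, FZD9 from 6.15 to 3.09 and the WNT5A receptor ROR2 from 31.2 to 16.4. FZD10 alone of the list rose, from 6.61 to 18.5 (log2 1.48 ± 0.37). LRP6 (11.2 and 12.2) and LRP5 (6.94 and 4.42) were not called.

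Of 9 secreted WNT antagonists 4 fell and 1 rose (3 and 2 under the normal p). SFRP1 fell from 232 to 88.9 (log2 -1.38 ± 0.41), SFRP4 from 6.89 to 0.294 (log2 -4.55 ± 0.63), FRZB from 20.3 to 10.8 and WIF1 from 1.94 to 0.516. DKK1, itself a target of beta-catenin, rose from 3.37 to 31.3 (log2 3.22 ± 0.52). SFRP2 stayed among the most abundant, at 172 and 224 without a call, and NOTUM, which removes the lipid of WNT proteins, went from 2.42 to 5.42 (q 0.0510, the authors' deposited table). Among the R-spondins RSPO3 rose from 0.727 to 10.7 (log2 3.88 ± 0.59) and RSPO2 from 4.62 to 14.5, and RSPO4 fell from 3.51 to 1.01. LGR4 fell from 74.8 to 29.9 (log2 -1.32 ± 0.41) while LGR5 rose from 0.202 to 1.77. WNT10B, which lies 6594 bases from WNT1 on chromosome 12 of hg19, rose from 6.37 to 29.2 (log2 2.20 ± 0.36).

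TCF and LEF factors carry beta-catenin to the DNA, at sites with the letters CTTTGAT or close variants. Promoter windows of RefSeq (GRCh38.p14) were searched for exactly these letters on both strands over the 250 bases before the start, using the start listed first for each gene. Of the 13734 tested members 9415 were matched by symbol. The letters stood in 9 of 562 promoters of genes that rose (1.60%), 5 of 614 of genes that fell (0.814%), 103 of 8239 of genes not called (1.25%) and 622 of all 27305 promoters (2.28%). The windows of 3 called regulators are shown because they carry the match and lie on both sides of the comparison, and they were picked after their values were seen. NR2F1, a nuclear receptor of the COUP-TF group, rose from 3.89 to 74.8 (log2 4.26 ± 0.32), the Iroquois factor IRX1 fell from 259 to 67.5 (log2 -1.94 ± 0.25) and the WNT-induced factor SP5 fell from 118 to 51.96 (log2 -1.18 ± 0.26). On GRCh38.p14 the windows are chr5:93582972-93583221 for NR2F1, chr5:3595582-3595831 for IRX1 and chr2:170715087-170715336 for SP5, all on the plus strand and written 5′ to 3′. Capitals mark the match, which in IRX1 reads on the other strand.
NR2F1: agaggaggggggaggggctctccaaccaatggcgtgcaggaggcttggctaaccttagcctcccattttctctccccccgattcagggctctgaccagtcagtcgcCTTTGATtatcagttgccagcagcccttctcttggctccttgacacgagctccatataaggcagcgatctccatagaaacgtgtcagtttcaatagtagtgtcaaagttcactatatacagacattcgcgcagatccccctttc
IRX1: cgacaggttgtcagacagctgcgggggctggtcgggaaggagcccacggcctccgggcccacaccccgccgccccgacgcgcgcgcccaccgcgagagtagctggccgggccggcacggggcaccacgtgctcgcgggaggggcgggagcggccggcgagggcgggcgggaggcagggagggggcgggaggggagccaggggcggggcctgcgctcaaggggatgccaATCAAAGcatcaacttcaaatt
SP5: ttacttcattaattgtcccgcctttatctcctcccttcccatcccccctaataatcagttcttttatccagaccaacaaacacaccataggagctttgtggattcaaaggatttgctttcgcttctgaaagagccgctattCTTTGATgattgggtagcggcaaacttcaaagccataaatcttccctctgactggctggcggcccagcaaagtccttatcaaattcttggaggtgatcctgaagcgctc
The match begins 144 bases before the start in NR2F1, 22 in IRX1 and 109 in SP5. It is a run of letters and no evidence of binding in these cells.

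Along the dorsal to ventral axis of the neural tube, roof plate cells secrete WNT and BMP ligands, and the floor plate secretes Sonic hedgehog. Of 17 dorsal genes 12 rose and 2 fell (10 and 2 under the normal p), with a median change of 2.59. The zinc finger factors ZIC1 and ZIC5 rose from 0.483 to 8.53 (log2 4.14 ± 0.52) and from 21.1 to 38.5, and LMX1B from 5.94 to 10.8. The dorsal bHLH gene OLIG3 was among those that fell, from 4.61 to 0.897. ZIC2 was at 144 and 172 without a call. Of 16 intermediate and ventral genes only 7 were members, of which DBX1 fell and PAX6 (from 1.86 to 15.3) and PRDM12 rose, the last no higher than 1.003 (higher and lower counts were 2 and 2 under the normal p). FOXA2, NKX2-2, OLIG2 and SHH were below 1 on both days. NKX6-2 went from 1.50 to 0.120 (q 0.0704, the authors' deposited table). MSX1, MSX2, GDF7 and RSPO3 also stand in the BMP or R-spondin lists above. MSX1, MSX2, PAX7 and ZIC1 are crest markers too, so the counts of these lists partly repeat the same genes.

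**Figure D3:**
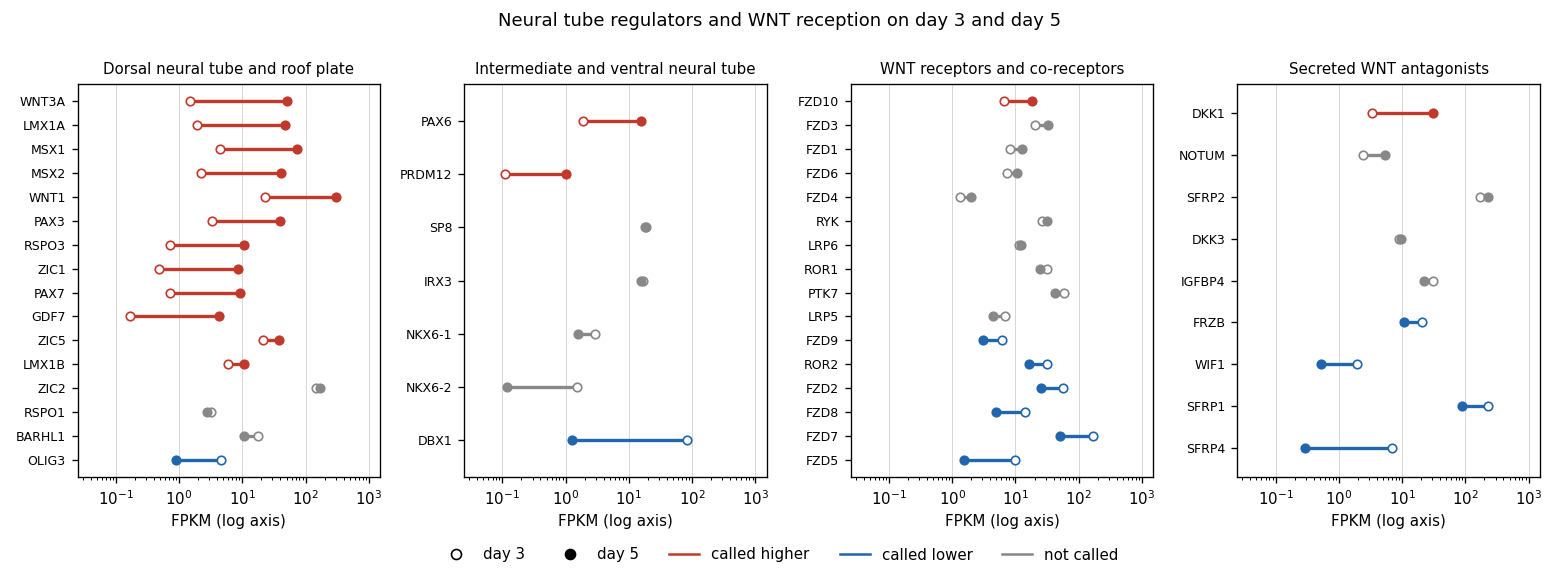
FPKM on day 3 (open circles) and day 5 (filled circles) of neural tube regulators, WNT receptors and secreted WNT antagonists, on a log axis, with 1 row per gene drawn. Most dorsal genes drawn lie to the right on day 5, WNT3A ending at 50.6 and WNT1 at 301, and DBX1, FZD5 and SFRP4 show the widest falls of their panels.

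Hedgehog ligands bind PTCH1, which releases SMO and so activates GLI factors, and PTCH1 and GLI1 are themselves targets of the pathway. Both targets fell, GLI1 from 5.23 to 0.587 (log2 -3.15 ± 0.53) and PTCH1 from 13.2 to 6.91 (log2 -0.93 ± 0.41). The co-receptors GAS1 and CDON rose from 6.88 to 42.6 (log2 2.63 ± 0.36) and from 5.31 to 29.3 (log2 2.47 ± 0.42), GLI3, which acts mainly as a repressor, from 27.04 to 51.01 and DISP1 from 4.42 to 8.97. SMO (47.1 and 44.1), SUFU (13.9 and 12.3) and BOC (27.3 and 35.5) were not called, and no Hedgehog ligand reached 1. In all, 4 members rose and 3 fell of 11 (2 and 2 under the normal p).

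Retinoic acid is made by ALDH1A enzymes, degraded by CYP26 enzymes and sensed by RAR and RXR receptors. ALDH1A1 rose from 0.134 to 5.25 (log2 5.29 ± 0.85) and ALDH1A3 from 0.399 to 3.19 (log2 3.00 ± 0.65), while CYP26A1 fell from 59.9 to 3.65 (log2 -4.04 ± 0.49) and CYP26C1 from 77.5 to 5.34 (log2 -3.86 ± 0.41). Of the receptors RARB, a retinoic acid target, fell from 10.5 to 1.02 (log2 -3.35 ± 0.61) and RARG from 32.8 to 13.8, and RARA was at 5.98 and 5.25 without a call. The binding protein CRABP1 rose from 281 to 877 (log2 1.64 ± 0.26), and CRABP2, at 348 and 494, was not called. ALDH1A2 and CYP26B1 were below 1. The count was 3 higher and 4 lower of 15.

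The Hippo pathway restrains YAP1 and WWTR1 (TAZ), cofactors of the TEAD factors. YAP1 rose from 21.7 to 48.8 (log2 1.17 ± 0.42), as did the targets CTGF from 30.1 to 77.2, CYR61 from 20.3 to 34.03, ANKRD1 from 2.66 to 9.08 and AMOTL2 from 20.7 to 52.4. VGLL4 rose from 16.95 to 32.8, and the related TEAD cofactor VGLL3 fell from 122 to 1.03 (log2 -6.89 ± 0.64). TEAD1 to TEAD4 were not called, TEAD2 being highest at 134 and 104. Of 18 members 6 rose and 1 fell (4 and 2 under the normal p).

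FGF and TGF-beta genes were called in both directions. FGF ligands counted 1 higher, FGF12 (from 2.54 to 4.63), and 1 lower, FGF8 (from 4.87 to 0.732), of 9 (0 and 2 under the normal p). The receptors FGFR1 and FGFR4 fell from 154 to 59.3 (log2 -1.38 ± 0.40) and from 20.5 to 10.4, whereas FGFR2 rose from 47.2 to 94.7 (log2 1.00 ± 0.40), which made 1 higher and 2 lower of 5 (0 and 2 under the normal p). The TGF-beta and activin list counted 4 higher and 1 lower of 16 (2 and 0 under the normal p). Over all tested genes 12.6% were called in either direction. In that list LTBP1 and LTBP4, which hold latent TGF-beta in the matrix, rose from 6.22 to 14.1 and from 17.9 to 31.1, and SKIL, a repressor of SMADs, from 2.98 to 6.93. The receptors TGFBR1 (36.5 and 31.04) and TGFBR2 (1.29 and 1.47) were not called. IGF2, a fetal growth factor, rose from 1.35 to 3.33 and its binding protein IGFBP2 from 315 to 551 (1 of both under the normal p), and none of the 13 IGF genes fell by Cuffdiff (1 at an unadjusted p under 0.05, 0 under the normal p).

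Among transcription factor families, SOX genes fell more often than they rose, with 5 lower and 1 higher of 14. The neural progenitor genes SOX21, SOX1 and SOX2 fell from 90.97 to 5.57 (log2 -4.03 ± 0.39), from 19.2 to 1.46 (log2 -3.72 ± 0.50) and from 341 to 129 (log2 -1.40 ± 0.42), SOX13 from 42.9 to 23.2 and SOX18 from 1.43 to 0.337. SOX9, which specifies crest and cartilage, rose from 4.48 to 18.1 (log2 2.02 ± 0.42). SOX4 (40.98 and 49.4), SOX11 (56.9 and 49.7) and SOX3 (17.6 and 10.1) were not called. Forkhead genes counted 2 higher and 3 lower of 20, 10% and 15% against 5.85% and 6.76% of all tested genes. Under the normal p they counted 1 and 2. FOXK1 rose from 2.88 to 5.40 and FOXA3 fell from 7.65 to 3.72 (neither under the normal p), beside FOXD3, FOXB1 and FOXH1. Of 23 nuclear receptors 13% rose and 17.4% fell. NR2F1, NR2F2 (from 5.22 to 38.98, log2 2.90 ± 0.43) and NR4A3 rose, and RARB, RARG, NR2F6 (from 84.3 to 48.3) and RORA fell. NR2F1 and NR2F2 are close paralogs, so reads they share could be split in either way. HES and HEY repressors, the usual Notch targets, counted 2 higher and 2 lower of 7, HES4 rising from 8.97 to 45.04 and HES6 falling from 37.2 to 19.2.

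Only 11 of 48 HOX, MEIS and PBX genes were members. PBX3 rose from 21.9 to 42.03 and MEIS1 from 1.37 to 2.78, and HOXA2, a gene of the hindbrain and second arch crest, fell from 1.97 to 0.141. Under the normal p neither PBX3 nor MEIS1 was called, and the list counted 1 higher and 1 lower. KLF and SP factors counted 3 higher and 2 lower of 17, 17.6% and 11.8% against 5.85% and 6.76% of all tested genes. KLF3, KLF6 and KLF10 rose from 7.12 to 13.3, from 5.11 to 8.75 and from 5.78 to 11.8, none of them called under the normal p. AP-1 and immediate early genes, which respond to growth factors and to handling, counted 5 higher and 2 lower of 14 (4 and 1 under the normal p). ATF3 rose from 7.39 to 22.6 and IER3 from 9.73 to 19.1, and JUN fell from 11.9 to 6.31 and FOSL1 from 7.98 to 2.79. Of 8 factors of the epithelial to mesenchymal transition ETS1, SNAI2 and ZEB1 (from 1.85 to 5.72, log2 1.63 ± 0.50) rose and none fell by Cuffdiff (1 at an unadjusted p under 0.05, 0 under the normal p). ZEB2 (24.97 and 16.6) and SNAI1 (3.97 and 3.40) were not called.

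Many genes of later crest fates were below 1. Of 10 pigment cell genes 2 were members, PMEL (137 and 116, not called) and KIT, which fell from 9.93 to 4.65 but not under the normal p. MITF, TYR and DCT were below 1. Among glial genes FABP7 rose from 18.8 to 56.03 (log2 1.58 ± 0.38) and POU3F1 fell from 60.9 to 15.6 (log2 -1.97 ± 0.30), and ERBB3 stood at 2.86 and 3.22. The sensory list counted 3 higher and 1 lower of 6 (4 and 0 under the normal p), with POU4F1 rising from 5.71 to 26.3 (log2 2.20 ± 0.39) and the proneural gene NEUROG1 from 0.120 to 1.28. Of the autonomic genes HAND2 and TH were below 1. PHOX2A went from 13.2 to 0.355 without a call (q 0.428, the authors' deposited table). Of 18 mesenchymal and skeletal genes 7 were members. Of these 5 rose, all of them also under the normal p, and none was lower (0 at an unadjusted p under 0.05). COL1A2 rose from 14.9 to 45.2 (log2 1.60 ± 0.38) and PDGFRA, a member through day 5 alone, from 0.329 to 1.46. PRRX1, RUNX2 and ALX1 were below 1. COL1A1 and COL1A2 are counted again among the collagen chains below.

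Receptors through which crest cells find their way and survive went both ways, 6 higher and 7 lower of 21 (4 and 4 under the normal p). The endothelin receptor EDNRA rose from 1.99 to 10.3 (log2 2.37 ± 0.52) and its ligand EDN1 from 0.778 to 2.90, the PDGF receptor PDGFRB from 4.46 to 8.93 and the ligand PDGFC from 0.650 to 3.29. Those that fell included NTRK2 (log2 -5.51 ± 0.60), RET (log2 -4.23 ± 0.53), the chemokine scavenger CXCR7 (from 4.29 to 1.12), the neurotrophin NTF3 (from 7.65 to 2.45) and neuregulin NRG1 (from 9.83 to 3.80). EDNRB and GDNF were below 1. Among Eph receptors and ephrins, which sort cells at boundaries, EPHA7 rose from 4.68 to 33.3 (log2 2.83 ± 0.44), EPHB1 from 9.29 to 21.97 and EFNB3 from 13.4 to 26.02. EPHB2 fell from 15.6 to 6.14, EPHB3 from 5.41 to 2.34 and EFNB1 from 59.4 to 34.00. Semaphorins, plexins and neuropilins counted 4 higher and 7 lower of 28. The secreted SEMA3A, SEMA3C and SEMA3F rose from 3.80 to 14.6, from 2.35 to 6.17 and from 10.4 to 30.6, while SEMA3E (from 3.05 to 1.07) and the transmembrane SEMA5A (from 7.001 to 1.40) and SEMA5B (from 34.6 to 7.77, log2 -2.16 ± 0.35) fell. SLIT2 and SLIT3 rose from 0.676 to 6.05 and from 0.248 to 2.004 and the netrin receptors UNC5C and UNC5D from 0.194 to 2.36 and from 5.19 to 14.8, whereas the ligand NTN1 fell from 5.05 to 1.38.

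Adhesion genes were called in both directions. Of 13 cadherins 5 rose and 4 fell. CDH6, a cadherin of premigratory crest, rose from 3.32 to 41.9 (log2 3.66 ± 0.46), CDH9 from 6.65 to 24.5, CDH8 from 1.46 to 6.40 and CDH11 from 11.4 to 21.03. The epithelial CDH1 fell from 3.95 to 0.585 (log2 -2.75 ± 0.60), as did CDH23 from 15.8 to 1.70, CDH4 from 4.72 to 1.86 and CDH7 from 1.66 to 0.519. CDH2, the most abundant, was at 101 and 157 without a call. Nonclustered protocadherins counted 4 higher and 3 lower of 9 (2 and 2 under the normal p), PCDH7 rising from 2.26 to 7.17 and PCDH8 and PCDH1 falling from 12.3 to 2.65 and from 15.01 to 3.43. Epithelial identity genes fell in 7 of 18 (5 under the normal p). The protease inhibitor SPINT1 fell from 14.8 to 2.07 (log2 -2.84 ± 0.48), RAB25 from 9.14 to 3.81 and EPCAM from 4.01 to 1.35. None rose by Cuffdiff (0 at an unadjusted p under 0.05, 0 under the normal p). Of 14 claudins 5 fell and 2 rose (4 and 1 under the normal p). CLDN6 fell from 309 to 48.4 (log2 -2.68 ± 0.32), and so did CLDN9, which lies 206 bases away on chromosome 16 (from 1.08 to 0.151), and CLDN3 from 8.49 to 3.35. CLDN1 rose from 0.902 to 2.54 and CLDN11 from 0.376 to 1.46. Among immunoglobulin adhesion molecules CNTN2 fell from 38.9 to 7.70 (log2 -2.34 ± 0.41) and MCAM rose from 7.74 to 13.3, and NCAM1 was at 12.6 and 9.21 without a call.

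Matrix genes rose as a group more often than they fell. Of 25 collagen chains 10 rose and 2 fell (6 and 1 under the normal p), that is 40% higher against 5.85% of all tested genes. The cartilage collagen COL2A1 rose from 34.6 to 123 (log2 1.83 ± 0.36), COL1A1 from 7.74 to 19.8, and the basement membrane chains COL4A5 and COL4A6 from 13.9 to 29.3 and from 12.9 to 29.8. These last 2 genes are 369 bases apart on the X chromosome, while COL4A1 (30.7 and 29.1) and COL4A2 (31.1 and 31.7) were not called. COL13A1 fell from 5.37 to 1.18. Of 29 matrix glycoproteins and proteoglycans 14 rose and 2 fell (9 and 2 under the normal p). Fibronectin FN1 rose from 13.4 to 29.1, the fibrillins FBN1 and FBN2 from 3.46 to 9.02 and from 10.3 to 30.4, SPON1 from 4.22 to 22.7 (log2 2.43 ± 0.43), the hyaluronan link protein HAPLN1 from 1.01 to 4.52, THBS1 from 5.23 to 11.9 and tenascin TNC from 6.98 to 12.3. FBLN1 fell from 201 to 66.96 (log2 -1.59 ± 0.32) and THBS2 from 5.88 to 1.06 (log2 -2.48 ± 0.46). None of the 5 laminin members was called by Cuffdiff (1 at an unadjusted p under 0.05, 0 under the normal p), LAMB1 standing at 27.6 and 42.00.

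Integrins are receptors of this matrix. Of 13 integrins 3 rose and 1 fell (2 and 0 under the normal p). ITGAV and ITGA5, chains of fibronectin receptors, rose from 6.09 to 15.2 (log2 1.32 ± 0.44) and from 15.99 to 27.3, and the laminin receptor chain ITGA6 fell from 32.5 to 15.98 (log2 -1.02 ± 0.44). ITGB1 was at 100.4 and 126 without a call. Glypicans and syndecans, the heparan sulfate carriers of the surface, were nearly all called, 4 higher and 3 lower of 9 (2 and 1 under the normal p). GPC6, GPC2, GPC3 and SDC2 rose, GPC6 from 2.81 to 10.6 and SDC2 from 50.9 to 94.6, and GPC4, SDC1 and SDC3 fell, SDC1 from 36.2 to 17.9 and SDC3 from 37.6 to 19.8. Matrix proteases and their inhibitors counted 5 higher and 4 lower of 36, 13.9% and 11.1% against 5.85% and 6.76% of all tested genes. Under the normal p they counted 2 and 2. ADAMTS20 rose from 2.51 to 11.2 and MMP17 fell from 5.93 to 1.84.

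**Figure D4:**
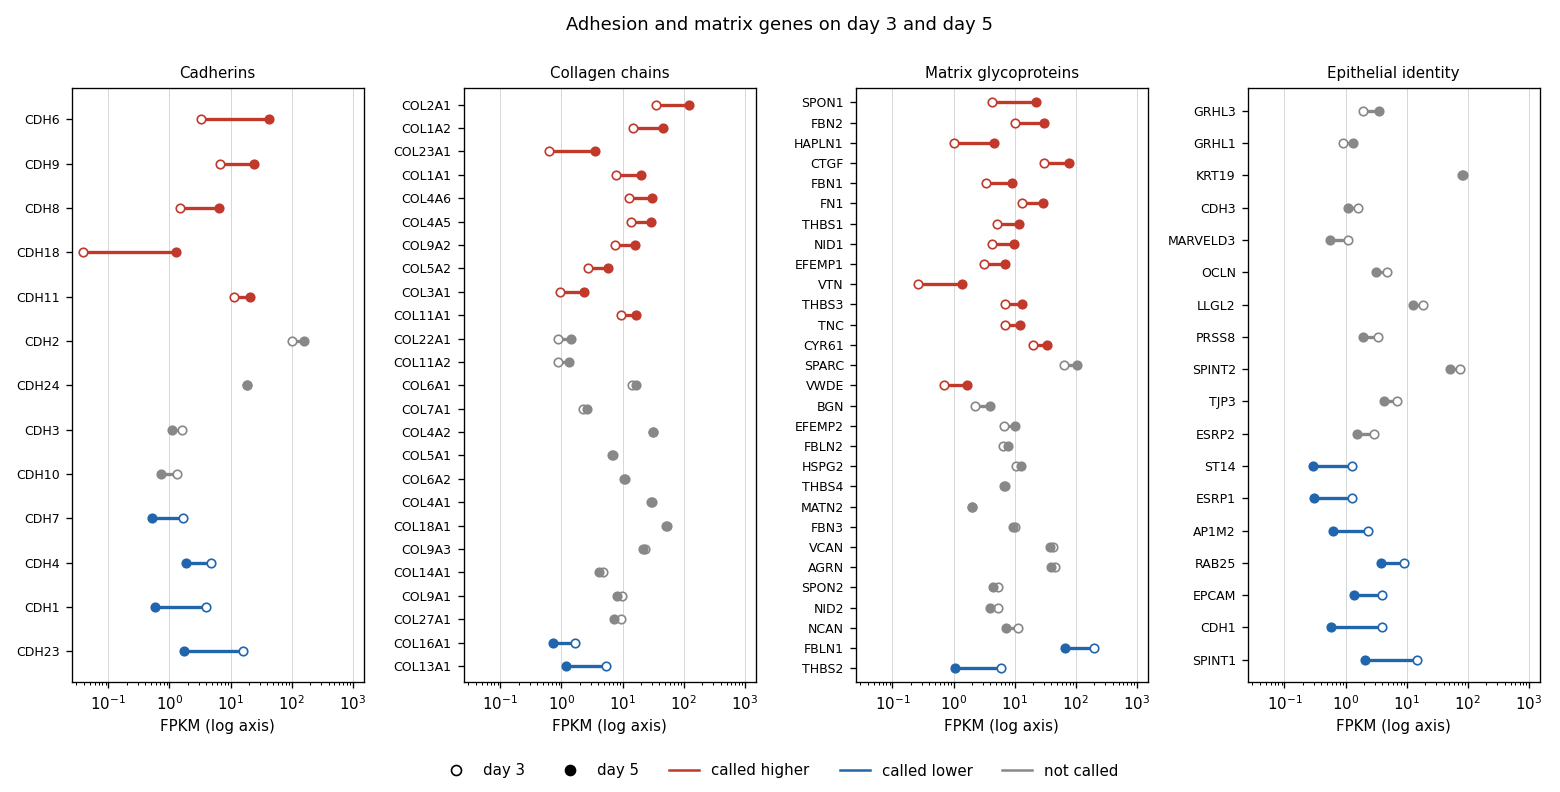
FPKM on day 3 (open circles) and day 5 (filled circles) of cadherins, collagen chains, matrix glycoproteins and epithelial genes, on a log axis, with 1 row per gene. Called changes of collagens and glycoproteins point mostly to the right, with FBLN1, THBS2, COL13A1 and COL16A1 as exceptions, and those of epithelial genes point to the left.

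Of 14 contractile members 2 rose. ACTA2, smooth muscle actin, rose from 34.1 to 266 (log2 2.96 ± 0.36), TAGLN from 248 to 737 (log2 1.57 ± 0.38). The other 12 were not called, among them TPM2 (411 and 507), CALD1 (54.3 and 55.7) and CNN1 (23.1 and 25.95). MYH11, DES and MYOCD were below 1. Cardiac actin ACTC1, which was not on the list, rose from 21.4 to 127 (log2 2.57 ± 0.41). Annexin ANXA1 rose from 6.49 to 99.8 (log2 3.94 ± 0.45) and ANXA3 from 3.41 to 10.3, while ANXA2 (97.2 and 130.0) and ANXA5 (160.3 and 133) were not called. Of 8 S100 members S100A11 rose, from 14.4 to 33.9. Vimentin VIM rose from 501 to 960.1 (log2 0.94 ± 0.36).

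Ion channel genes counted 7 higher and 11 lower of 58, 12.1% and 19%, with 3 and 7 under the normal p. Solute carriers counted 6 and 19 of 180, 3.33% and 10.6% against 5.85% and 6.76% of all tested genes, but 3 and 9 under the normal p. The potassium channel KCNK12 fell from 11.4 to 1.01 (log2 -3.49 ± 0.40) and KCNN2 from 7.32 to 3.12. The zinc and metal carrier SLC39A8 rose from 8.75 to 30.9 (log2 1.82 ± 0.45), and the creatine carrier SLC6A8 and the glycine carrier SLC6A9 fell from 85.6 to 37.6 and from 11.8 to 4.49. Imprinted genes, expressed from 1 parental copy, counted 3 higher and 6 lower of 18. DLK1 fell from 359 to 59.6 (log2 -2.59 ± 0.31), and MEG3 and RTL1, which lie within 145524 bases of it on chromosome 14, fell from 2.32 to 0.612 and from 1.08 to 0.0763. RTL1 and MEG3 share table loci with other transcripts, so their values are uncertain. NNAT fell from 393 to 163 and ZDBF2 rose from 5.32 to 12.5. H19 was at 3.03 and 3.93 without a call. Of 21 LINC-named noncoding RNAs LINC00152 and LINC00472 rose, to 5.17 and 1.50, and the microRNA host gene MIR100HG rose from 0.274 to 3.10 (log2 3.50 ± 0.77).

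Over all tested genes 6.76% fell and 5.85% rose. Metallothioneins fell in 50% of tested members, chaperones in 6.67% and replication and mitosis genes in 9.09%. Of the chaperones 3.33% rose. Metallothioneins, which bind zinc and copper, fell in 3 of 6, MT1X from 32.1 to 13.96 and MT1F from 10.6 to 3.52, though these genes are near copies and reads could be split between them. Of 60 chaperones 4 fell and 2 rose (1 and 0 under the normal p). Replication and mitosis genes counted 3 lower of 33, CCNE1 (from 17.1 to 9.27), MCM4 (from 126 to 74.5) and MCM5 (from 71.2 to 42.00), and 0 under the normal p. None rose by Cuffdiff (1 at an unadjusted p under 0.05, 0 under the normal p), and the list's median change was -0.36. CDK6 rose from 0.715 to 5.14 (log2 2.85 ± 0.51) and GADD45A from 31.5 to 65.1, and GADD45G fell from 3.33 to 1.03. No ribosomal protein of 83, oxidative phosphorylation subunit of 89 or proteasome subunit of 36 was called by Cuffdiff. At an unadjusted p under 0.05 these lists held 0, 1 and 1 genes, the last pair lower on day 5, and 0 under the normal p.

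**Figure D5:**
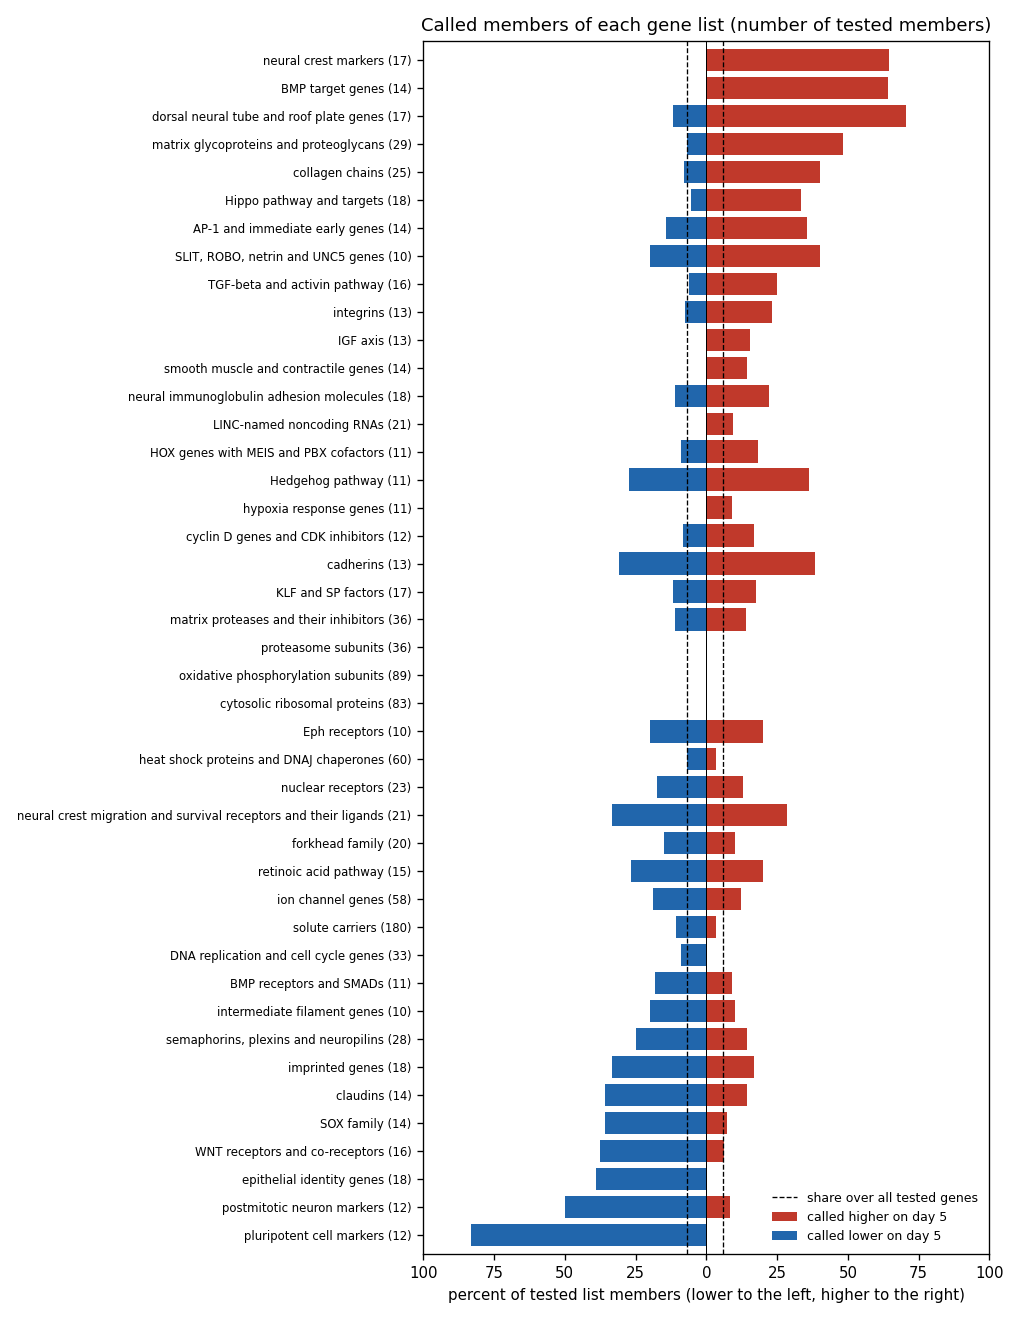
Share of the tested members of each list called higher (bars to the right) or lower (bars to the left), in percent, for lists with at least 10 tested members, whose number stands in brackets. Dashed lines mark the shares over all tested genes, 5.85% and 6.76%, which crest markers, BMP targets and dorsal genes pass to the right and markers of pluripotent cells pass to the left. Some genes stand in several lists.

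Some calls need care. All 9 called genes listed at 0 in a group were small nucleolar RNA genes, such as SNORD73A (1601 on day 3) and SNORD18C (393 on day 5). Such RNAs are short and lack a poly-A tail, and their FPKM can rest on few fragments. Of 302 tested small RNA genes 4 rose and 10 fell. Differences of at least 2 on the log2(FPKM + 1) scale, with at least 5 in the higher group, were left uncalled for 141 small RNA genes and for 8 other genes above 0 in both groups. The other genes include SOX2-OT (from 27.7 to 2.43) and MAB21L2 (from 8.67 to 82.98). Conversely 5 genes were called although the authors' deposited table gives them a statistic below 0.3 in size, among them INPP5D (3.53 and 3.83). Of the genes given above as rising, CDH11, CLDN1, COL4A5, CYR61, DISP1, EDN1, EFNB3, FGF12, FGFR2, FOXK1, GLI3, IER3, IGF2, ITGA5, KLF10, KLF3, KLF6, LMX1B, MCAM, MEIS1, PBX3, PDGFRB, SDC2, SIX4, SKIL, SNAI2, TNC, VGLL4, VIM and ZIC5 were not called under the normal p. Of those given as falling, CCNE1, CDH7, EFNB1, EPCAM, EYA2, FOXA3, FRZB, ITGA6, JUN, KCNN2, KIT, MCM4, MCM5, NEFL, NRG1, PTCH1, SDC3 and SOX13 were not called under it. The same held for GPC3, given as rising, and for COL16A1, GPC4, HSPA8 and RORA, given as falling. Called genes that share their table locus with another gene numbered 228. PAX3, TFAP2A, PAX6, SOX2, FEZF1, EYA2, VGLL4, ACTA2, TAGLN, CDH23, EPCAM, COL3A1, COL5A2, RGMB, FZD8, PTCH1, GLI1, EPHB2, IGF2 and NNAT are among them, and since the strandedness of the libraries is not given in the sources used here, overlapping reads could fall to either gene.

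Locus width differed with direction. Over tested members with a locus of their own and without small RNA genes, the median locus width on hg19 was 41210 bases for 717 higher genes, 22374 for 779 lower genes and 26777 for 8646 genes not called. Among the 2029 genes with the widest loci 12.3% rose and 6.95% fell, and among the 2029 with the narrowest loci 142 rose and 189 fell. The median change was -0.11 in the narrowest and 0.06 in the widest class. By chromosome, small RNA genes and chromosomes with few tested genes, such as Y, were left out. The share that rose then ran from 1.76% of 1021 genes on chromosome 19 to 11.8% of 476 genes on chromosome 4. The part of locus width in the results above was not tested.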

How the data were processed

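RNA-seq libraries of WA01 cells on days 0, 3 and 5 (2 each) were made from poly-A RNA, per the labels' protocols. Cuffdiff 2.1.1, TopHat2 2.0.10, TopHat without a version and the hg19 build are listed in the submitters' processing notes. The annotation and the strand setting were not given in the sources used here. The deposited table holds, per the file headers, 1 FPKM per gene and group, a test statistic (a score whose sign follows the log2 fold change), a p-value and a q-value, all made by the authors with replicates combined. No values per library and no count of reads were given, so depth, spread between libraries and intervals could not be computed. If the libraries of a group share a culture, the p-values measure technical spread only.

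Genes were identified by the table's test identifier. From the FPKM values the change log2((day 5 + 1)/(day 3 + 1)), with a pseudocount of 1, was computed for genes at FPKM 1 or more in either group. A gene was called where its status was OK and the q below 0.05. Standard errors are the log2 fold divided by the test statistic, without sign. The normal p is the two-sided normal p of that statistic with Benjamini-Hochberg adjustment over all tested rows. No test was run over lists, which are described by counts and medians. The code was tested on simulated data with Python 3.11.15, pandas 2.3.3, numpy 2.4.6, scipy 1.17.1 and matplotlib 3.10.9.

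Genes named in the text are the 40 largest called rises and falls (FPKM 5 or more in the higher group, without small RNA genes), the 15 largest switches in each direction, the 10 largest FPKM differences, up to 6 called members of each list and every member of lists of at most 16, uncalled genes with large changes, and members added to make a count clear. The comparison, the members and the lists were chosen with earlier results of these data known. Alternatives covered the q threshold, the source and family of the p, the FPKM filter, the size of change, the pseudocount, scaling, and leaving out genes of uncertain counts or, chosen after seeing the data, small RNA genes. Promoter sequences are from RefSeq (GRCh38.p14). Other comparisons of the table were not used, except for day 0 levels. Some list members enter the counts but are not reported here by name, and are not drawn.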

Additional observations from a re-analysis of the deposited data

How the results depend on the processing

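No paired analysis was possible because the deposited table gives 1 combined value per group, and for the same reason no library could be left out in turn. The genes higher on day 5 than on day 3 numbered 803, and 515 at a q below 0.01 and 448 under the normal p. They numbered 476 at an FPKM of at least 5 and 356 with a change of at least 2-fold in FPKM + 1. The genes lower on day 5 than on day 3 numbered 929, and 564 at a q below 0.01. With a change of at least 2-fold in FPKM + 1 they numbered 445. Genes switched on numbered 7 in place of 19 with off below 0.5 and 5 with on from 10, and genes switched off 15 and 11 in place of 27. More members higher than lower were found in 37 of 70 lists, and in 28 to 40 under the alternatives. Of 140 counts, higher and lower for each list, 54 moved by over 1.5 times with a change of at least 2-fold in FPKM + 1. So did 44 at an FPKM of at least 5, 42 under the normal p and 29 at a q below 0.01. Under the normal p 964 of the 1732 called genes were called again. Of 521 genes with values under every setting, 350 of them called, 79 lost their call under the normal p and 4 gained one, 62 lost it at a q below 0.01 and 18 with adjustment over the day 3 to day 5 rows alone. None of the called genes among them changed direction under the scalings or pseudocounts, while small differences of genes not called did change sign. Leaving out MIR4461, MIR1244-1 and MIR1244-3, which hold 25.9% of all FPKM on day 3 and 21.9% on day 5, and matching the sums raised all day 5 values by 0.15 on the log2 scale. The medians of 14 lists, all with a main value below 0.123 in size, then changed sign. At an FPKM of at least 5 the medians of 11 lists changed sign, among them that of forebrain markers, 1.07 over all members and -0.46 over those left. The cause of these shifts was not tested. The depth of the libraries, which limits the calls of low genes, is unknown.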
